A study of Mus musculus with 46 samples.

Results

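Matrix metalloproteinases are zinc-dependent proteases that cut collagens, proteoglycans and other proteins of the extracellular matrix, and they are held back by inhibitors such as Reck. The genes described here are 4 matrix metalloproteinases (Mmp3, Mmp10, Mmp13 and Mmp16), the related secreted protease Adamts12, and Reck. These 6 genes were chosen by name from the 55416 identifiers of a raw count table, and their identifiers were matched to GENCODE M21 (GRCm38). They lie in 3 chromosome segments in which the table's identifiers match genes, with 305 identifiers on chromosome 15, 686 on chromosome 4 and 75 on chromosome 9. Over most of the rest of the table identifiers do not match the genes they name, so other family members, and Atf4 itself, were not analysed here. That leaves the labelled knockout unchecked by its own gene.

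The samples were mouse embryonic fibroblasts (MEFs), cultured cells of connective tissue origin. Wild type cells received vehicle (DMSO, 11 libraries) or 600 nM borrelidin (12 libraries), and ATF4 KO cells received vehicle (11 libraries) or 600 nM borrelidin (12 libraries), each for 7 h. Borrelidin inhibits threonyl tRNA synthetase and so sets off the amino acid response, in which the transcription factor ATF4 is translated more. The comparisons address how the levels of the protease genes and of Reck respond to the drug, and whether that response differs in cells without ATF4. The wild type cells were purchased, and the ATF4 KO line was made in house with CRISPR/Cas9 and cell sorting. A genotype effect therefore cannot be told apart from any other difference between these lines.

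Each library held 2047362 to 3467765 counts assigned to identifiers, so 3 counts, the limit that a count of 0 allows, correspond to 0.865 to 1.47 counts per 1000000 (CPM) in 1 library. Levels are given as CPM after trimmed-mean (TMM) scaling, and fold changes as log2 values from edgeR's quasi-likelihood test fitted to all 46 libraries, with p-values adjusted by the Benjamini-Hochberg method over the 8986 identifiers that passed the filter on low counts. All 6 genes passed it. Within their groups, 14 libraries stood apart on the second principal component, which held 21.88% of the variance. They were replicates 1 to 8 of wild type with vehicle and replicates 1 to 3 of each ATF4 KO group, and none was of wild type with borrelidin. Only 3 of the 11 wild type vehicle libraries were thus not set apart, and results on the 6 genes that rest on the others are given with and without the 14. The side set apart in a group was the one farther on this component from the mean of wild type with borrelidin. The 3 wild type vehicle libraries kept are therefore those nearer to the treated group. A wild type response lost without the 14 is thus not shown to be absent.

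Of 18 fibroblast markers, 4 lie in the segments. Tpm2, a tropomyosin of the contractile cytoskeleton, had group means of 445 to 667 CPM and the natriuretic peptide receptor Npr3 16.2 to 87.2 CPM, while Osr2 reached 3.68 CPM and Col15a1 1.43 CPM at most. The summed level of these 4 ranged from 583 to 959 CPM in wild type libraries and from 375 to 670 CPM in ATF4 KO libraries. The macrophage and neutrophil markers Mmp12 and Mmp8 had 9 and 1 counts in all 46 libraries together, and Mmp7 of epithelium and Mmp20 of enamel had none. Of the B cell markers, Cd72 was at 86.5 to 107 CPM in every group, and Pax5 at 0.156 and 0.319 CPM in the wild type groups and at 9.51 and 16.7 CPM in the ATF4 KO groups. The part of these marker levels in the results was not tested. In bulk RNA, fewer cells of a type and less RNA per cell cannot be told apart.

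Mmp3 (stromelysin-1) and Mmp10 (stromelysin-2) are secreted proteases with broad substrates that can also activate other metalloproteinases, and Mmp13 is a collagenase. Fibroblasts release them when matrix is remodelled, and their genes are classic targets of AP-1, the Fos and Jun family of transcription factors. Mmp16 is a metalloproteinase anchored in the cell membrane. Adamts12 belongs to the ADAMTS family, which adds thrombospondin repeats to the protease domain. Reck, an anchored glycoprotein of the cell surface, restrains several metalloproteinases and also acts as a coreceptor in Wnt7 signalling.

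The genes of Mmp13 (chr9:7272514-7283331), Mmp3 (chr9:7445822-7455975) and Mmp10 (chr9:7502352-7510240) stand in this order on the + strand of the metalloproteinase cluster of chromosome 9, in GRCm38 coordinates. The 150 bases that precede the start of each are printed here from RefSeq (GRCm38.p6, + strand), because these are the 3 members of the cluster with appreciable levels. Capitals mark the AP-1 letters TGANTCA and, in Mmp10, also the letters TGATGNAA of the C/EBP-ATF response element (CARE) that ATF4 is known to bind, each searched on both strands. The windows are chr9:7272364-7272513 for Mmp13, chr9:7445672-7445821 for Mmp3 and chr9:7502192-7502341 for Mmp10.
Mmp13: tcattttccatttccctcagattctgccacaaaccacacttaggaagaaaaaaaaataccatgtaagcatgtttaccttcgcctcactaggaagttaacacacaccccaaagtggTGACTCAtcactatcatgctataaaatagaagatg
Mmp3: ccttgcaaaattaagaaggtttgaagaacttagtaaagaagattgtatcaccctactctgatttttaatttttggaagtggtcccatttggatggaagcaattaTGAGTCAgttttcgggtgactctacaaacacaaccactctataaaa
Mmp10: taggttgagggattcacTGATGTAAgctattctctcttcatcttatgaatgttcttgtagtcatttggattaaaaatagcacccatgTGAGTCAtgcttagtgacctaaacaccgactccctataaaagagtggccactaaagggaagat
The AP-1 letters began 35 bases before the start in Mmp13, 46 in Mmp3 and 63 in Mmp10, and the CARE letters 133 bases before it in Mmp10. For comparison, 4.24% of the 32851 RefSeq promoters held the AP-1 letters in a window of this length and 2.23% held the CARE letters. The windows of Reck (chr4:43875380-43875529) and Adamts12 (chr15:11064623-11064772) held neither. The promoter table matched 5 of the 6 genes, all but Mmp16. A match is a run of letters, not a site.

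Mmp3 had the largest ratio between group means of the 6 genes. In wild type with vehicle its lowest, median and highest levels were 4.46, 7.49 and 11.9 CPM (mean 7.75 ± 2.25, SD, n = 11). With borrelidin they were 7.04, 14.1 and 20.2 CPM (14.04 ± 4.32, n = 12). In ATF4 KO cells they were 0, 0.337 and 1.36 CPM with vehicle (0.487 ± 0.448, n = 11) and 0, 0.342 and 1.31 CPM with borrelidin (0.432 ± 0.418, n = 12).

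Every wild type library thus lay above every ATF4 KO library, under vehicle and under borrelidin, while the wild type groups overlapped and 8 of the 12 borrelidin libraries exceeded all vehicle libraries. The ATF4 KO groups held 15 and 17 Mmp3 counts in all, with no count in 2 and 4 of their libraries, and both means were under 1 CPM, the level below which a gene is called not expressed here. Over all 46 libraries each of the 6 genes had a mean of at least 1 CPM. Of the 75-base windows of Mmp3 exons, 3.76% also occur in Mmp10, so a few of the reads of these genes are of uncertain origin.

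Mmp3 was 15.4-fold lower in vehicle-treated ATF4 KO cells than in their wild type counterparts (log2 -3.94, SE 0.34, 95% CI -4.63 to -3.25, adjusted p = 1.4e-13). Under borrelidin it was 28.1-fold lower (log2 -4.81, SE 0.32, 95% CI -5.45 to -4.18, adjusted p = 3.8e-18). Without the 14 libraries set apart these differences were -3.84 (adjusted p = 6.8e-09) and -5.32 (adjusted p = 2e-16). Borrelidin raised Mmp3 1.80-fold in wild type cells (log2 0.85, SE 0.23, 95% CI 0.38 to 1.32, adjusted p = 0.0017). With the 3 remaining vehicle libraries alone the estimate was 0.68 and no longer passed (adjusted p = 0.12), and with the library set as a block it was 0.77 (adjusted p = 0.037). In ATF4 KO cells the estimate was -0.02 with an interval of -1.08 to 1.04, which at these counts includes a doubling in either direction. Accordingly the difference between the responses of the genotypes, 0.87 (95% CI -0.28 to 2.02, adjusted p = 0.23), did not pass.

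Mmp13 had its highest level in wild type cells with borrelidin. There its lowest, median and highest levels were 6.63, 9.95 and 15.7 CPM (10.7 ± 3.40, n = 12). The corresponding values were 1.59, 3.61 and 10.6 CPM in wild type with vehicle (4.41 ± 2.67, n = 11), 3.03, 4.94 and 10.4 CPM in ATF4 KO with vehicle (5.63 ± 2.40, n = 11), and 1.12, 3.56 and 7.67 CPM in ATF4 KO with borrelidin (3.91 ± 1.78, n = 12).

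Of the 12 wild type borrelidin libraries 6 exceeded every wild type vehicle library and the others overlapped with that group, while 9 of the 11 wild type vehicle libraries and 11 of the 12 ATF4 KO borrelidin libraries lay below all 12. The 3 other groups followed without a gap larger than their SD. Borrelidin raised Mmp13 2.45-fold in wild type cells (log2 1.30, SE 0.26, 95% CI 0.78 to 1.81, adjusted p = 4.2e-05), whereas in ATF4 KO cells the estimate was -0.50 (95% CI -1.03 to 0.03, adjusted p = 0.15). The wild type response exceeded that of ATF4 KO cells by 1.80 (log2, SE 0.37, 95% CI 1.06 to 2.54, adjusted p = 0.00023). Under borrelidin Mmp13 was 2.70-fold lower in the ATF4 KO line than in wild type cells (log2 -1.43, SE 0.25, adjusted p = 5.2e-06), and under vehicle the estimate was 0.37 (95% CI -0.17 to 0.91, adjusted p = 0.29).

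Part of the wild type vehicle spread of Mmp13 went with the library sets, since the 8 libraries set apart had a mean of 3.44 ± 1.87 CPM and the other 3 a mean of 7.00 ± 3.12 CPM. Without the libraries set apart the wild type response was 0.61 (adjusted p = 0.19) and the difference of responses 1.19 (adjusted p = 0.065). With the set as a block they were 1.34 (adjusted p = 0.00026) and 1.83 (adjusted p = 0.00035). The block takes the same set effect in all groups. In ATF4 KO the libraries set apart were instead the higher ones, with means of 6.82 against 5.18 CPM with vehicle and 5.42 against 3.41 CPM with borrelidin. The block fit therefore cannot settle the wild type response. The genotype difference under borrelidin compares the 2 borrelidin groups, and vehicle libraries enter it only through the shared spread, scaling and filter. It was -1.64 without the libraries set apart (adjusted p = 1.4e-07).

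Mmp10, the neighbour of Mmp3, differed from it in being detected in every ATF4 KO library. In ATF4 KO with vehicle its lowest, median and highest levels were 3.37, 4.60 and 8.69 CPM (5.33 ± 1.73, n = 11). With borrelidin they were 0.555, 1.99 and 5.42 CPM (2.39 ± 1.42, n = 12). In wild type cells they were 1.33, 2.96 and 10.7 CPM with vehicle (4.27 ± 2.81, n = 11) and 2.79, 5.14 and 7.47 CPM with borrelidin (5.23 ± 1.44, n = 12).

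The ATF4 KO borrelidin group was the low one, with 9 of its 12 libraries below every ATF4 KO vehicle library and 7 below every wild type borrelidin library, although all the groups overlapped. Borrelidin lowered Mmp10 2.21-fold in ATF4 KO cells (log2 -1.15, SE 0.28, 95% CI -1.71 to -0.58, adjusted p = 0.0013), and without the libraries set apart the estimate was -1.19 (adjusted p = 0.0004). Under borrelidin Mmp10 was 2.19-fold lower in the ATF4 KO line than in wild type cells (log2 -1.13, SE 0.28, 95% CI -1.69 to -0.57, adjusted p = 0.00068). Under vehicle the genotypes differed by 0.33 (95% CI -0.22 to 0.88, adjusted p = 0.36), an estimate that turned to -0.37 (adjusted p = 0.46) without the libraries set apart.

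The wild type response of Mmp10 had no settled sign. It was 0.32 over all libraries (95% CI -0.23 to 0.86, adjusted p = 0.32), -0.51 without the libraries set apart (adjusted p = 0.28) and -0.19 with the set as a block (adjusted p = 0.64). The 8 wild type vehicle libraries set apart had a mean of 3.05 ± 1.24 CPM and the other 3 a mean of 7.51 ± 3.52 CPM. The difference of responses was 1.46 over all libraries (SE 0.39, 95% CI 0.68 to 2.24, adjusted p = 0.0039) and 0.68 without the libraries set apart (adjusted p = 0.34). With the set as a block it was 0.96 and no longer passed (adjusted p = 0.056).

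**Figure D1:**
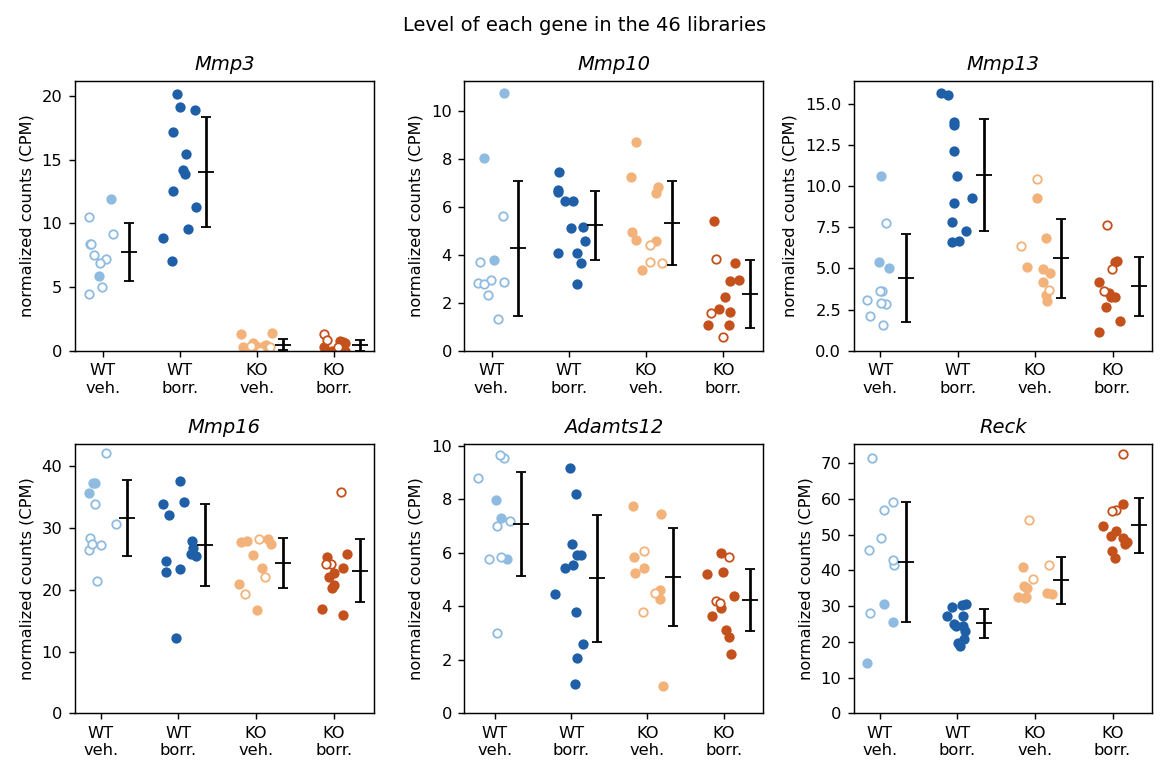
Level of each of the 6 genes, in TMM-scaled CPM, in every library of the 4 groups (WT, wild type; veh., vehicle; borr., borrelidin). Points are libraries, open points are the 14 that stood apart on the second principal component, and the black marks give the mean ± SD; Mmp3 is near 0 in both ATF4 KO groups and Reck is highest in ATF4 KO with borrelidin.

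The rest of the chromosome 9 cluster was silent or nearly so. Of 23 matrix metalloproteinase genes listed, 11 lie in the segments, and only the 4 described here passed the filter on low counts. In all 46 libraries together Mmp1b had 14 counts, Mmp12 (macrophage elastase) 9, Mmp8 (neutrophil collagenase) 1 and Mmp27 1, while Mmp1a, Mmp20 (enamelysin) and Mmp7 (matrilysin) had 0, which allows up to 0.0226 CPM. The signal of the cluster thus came from 3 of its 10 genes, and the genes between them had at most 14 counts.

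**Figure D2:**
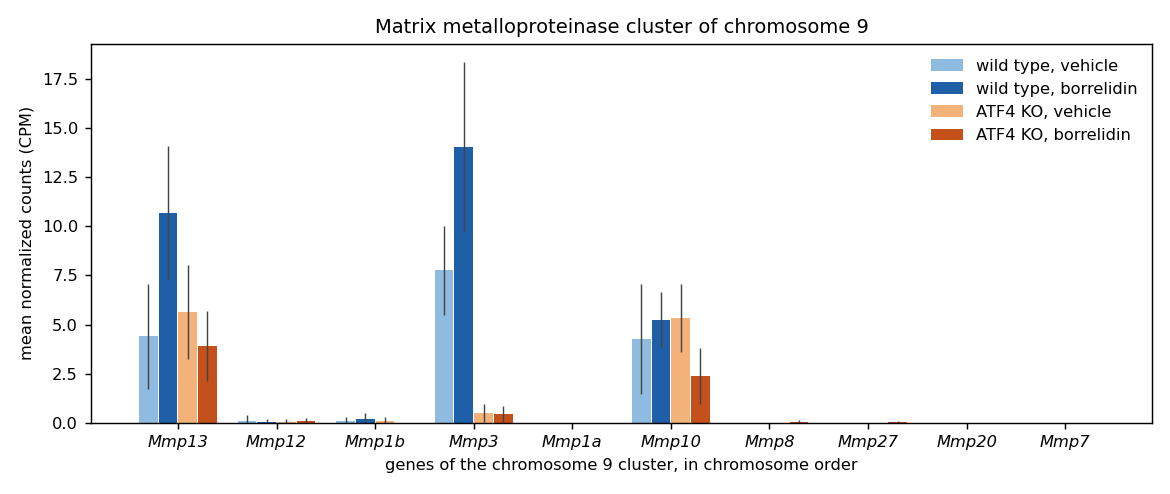
Mean level, in TMM-scaled CPM, of the 10 metalloproteinase genes of the chromosome 9 cluster in chromosome order, with a bar for each of the 4 groups and lines for the SD over 11 or 12 libraries (cut off at 0). Signal stands at Mmp13, Mmp3 and Mmp10, and of these Mmp3 alone is near 0 in both ATF4 KO groups.

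Mmp16 (chr4:17852893-18119145, + strand) was steady by comparison. Its lowest, median and highest levels were 21.4, 30.6 and 42.1 CPM in wild type with vehicle (31.6 ± 6.12, n = 11) and 12.3, 26.3 and 37.6 CPM with borrelidin (27.2 ± 6.68, n = 12). Among ATF4 KO libraries they were 16.7, 25.6 and 28.3 CPM with vehicle (24.3 ± 4.09, n = 11) and 16.0, 23.1 and 35.8 CPM with borrelidin (23.1 ± 5.04, n = 12). All groups overlapped, and no neighbours in this order were separated by more than their SD.

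Mmp16 was 1.30-fold lower in the ATF4 KO line than in wild type cells under vehicle (log2 -0.38, SE 0.13, 95% CI -0.63 to -0.12, adjusted p = 0.019). The call was lost when no filter on low counts was used (-0.33, adjusted p = 0.12). Under borrelidin the difference was -0.23 (95% CI -0.48 to 0.02, adjusted p = 0.12), and without the libraries set apart -0.35, which passed (adjusted p = 0.017). The response to borrelidin was -0.22 in wild type cells (95% CI -0.47 to 0.04, adjusted p = 0.13) and -0.07 in ATF4 KO cells (95% CI -0.33 to 0.18, adjusted p = 0.71). A fall of more than 1.39-fold lies outside both of these intervals, which are from all libraries. Without the libraries set apart the responses were -0.43 in wild type cells (adjusted p = 0.077) and -0.22 in ATF4 KO cells (adjusted p = 0.21). The bound does not extend to that fit.

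Adamts12 (chr15:11064790-11349231, + strand), the other protease outside the cluster, passed the test in none of the 5 comparisons. Its lowest, median and highest levels were 2.99, 7.18 and 9.64 CPM in wild type with vehicle (7.07 ± 1.95, n = 11) and 1.11, 5.48 and 9.15 CPM with borrelidin (5.05 ± 2.38, n = 12). For ATF4 KO they were 1.01, 5.25 and 7.74 CPM with vehicle (5.08 ± 1.84, n = 11) and 2.23, 4.17 and 5.98 CPM with borrelidin (4.24 ± 1.18, n = 12). Wild type with vehicle had the highest mean, above the next by slightly more than an SD, and the 3 other groups followed each other within their SD.

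The estimates for Adamts12 were -0.47 for borrelidin in wild type cells (95% CI -0.93 to -0.0043, adjusted p = 0.076), -0.26 in ATF4 KO cells (adjusted p = 0.43), -0.47 between the genotypes under vehicle (95% CI -0.94 to -0.0035, adjusted p = 0.11) and -0.27 under borrelidin (adjusted p = 0.35). The responses differed by -0.21 (95% CI -0.87 to 0.46, adjusted p = 0.65). Both intervals that lie below 0 are for single tests, and neither result passed after adjustment.

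Reck (chr4:43875530-43944806, + strand) fell with borrelidin in wild type cells and rose in ATF4 KO cells over all libraries, but the fall did not pass without the libraries set apart. In wild type cells its lowest, median and highest levels were 14.2, 42.9 and 71.3 CPM with vehicle (42.3 ± 16.7, n = 11) and 18.8, 24.8 and 30.7 CPM with borrelidin (25.2 ± 4.09, n = 12). Among the ATF4 KO groups they were 32.4, 35.1 and 54.2 CPM with vehicle (37.2 ± 6.50, n = 11) and 43.4, 50.3 and 72.5 CPM with borrelidin (52.5 ± 7.82, n = 12).

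All 12 ATF4 KO borrelidin libraries lay above all 12 wild type borrelidin libraries, and 10 of the 11 ATF4 KO vehicle libraries lay below every ATF4 KO borrelidin library. In wild type cells 8 of the 11 vehicle libraries exceeded every borrelidin library and 1 lay below them all. Ordered by mean, ATF4 KO with borrelidin, wild type with vehicle and ATF4 KO with vehicle were not separated by more than the SD of the wild type vehicle group, and wild type with borrelidin was the lowest, by more than an SD.

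Reck was 2.09-fold higher in ATF4 KO than in wild type cells under borrelidin (log2 1.06, SE 0.15, 95% CI 0.77 to 1.35, adjusted p = 3.2e-08), and this held without the libraries set apart (0.96, adjusted p = 2.9e-11). Borrelidin raised it 1.41-fold in ATF4 KO cells (log2 0.50, SE 0.14, 95% CI 0.21 to 0.79, adjusted p = 0.0065). Without the libraries set apart this estimate was 0.52 (adjusted p = 7.6e-05), and within the 3 libraries set apart in each group the means were 44.4 ± 8.69 CPM with vehicle and 61.9 ± 9.11 CPM with borrelidin.

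In wild type cells borrelidin lowered Reck 1.69-fold (log2 -0.76, SE 0.15, 95% CI -1.06 to -0.46, adjusted p = 3.6e-05), and this call was lost without the vehicle libraries set apart. Those 8 libraries had a mean of 49.3 ± 13.1 CPM, whereas the other 3 had a mean of 23.5 ± 8.43 CPM, close to the borrelidin mean of 25.2 CPM. Without the libraries set apart the response was 0.11 (adjusted p = 0.7), and with the set as a block it was -0.31 (adjusted p = 0.1). The 3 vehicle libraries kept were those nearer on component 2 to the borrelidin group, so the former fit cannot decide whether Reck fell. The block takes the same set effect in all groups, while in ATF4 KO the sets differed less (44.4 against 34.5 CPM with vehicle, 61.9 against 49.4 CPM with borrelidin). The difference of responses was -1.26 over all libraries (SE 0.21, 95% CI -1.67 to -0.84, adjusted p = 9.3e-06), -0.83 with the set as a block (adjusted p = 0.00056) and -0.41 without the libraries set apart (adjusted p = 0.16). Under vehicle the genotypes differed by -0.20 (95% CI -0.49 to 0.10, adjusted p = 0.31) over all libraries and by 0.55 (adjusted p = 0.0088) without the libraries set apart, so the sign of the vehicle difference depended on which libraries were used.

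**Figure D3:**
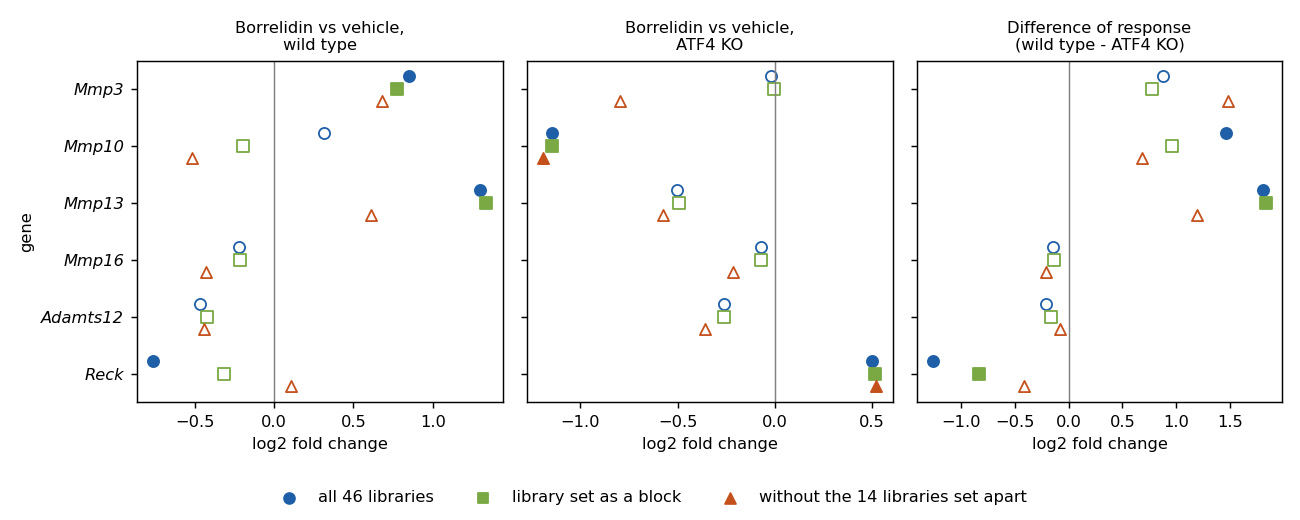
Log2 fold change of each gene with borrelidin in wild type and in ATF4 KO cells, and the difference of these responses, from fits to all 46 libraries (circles), with the library set as a block (squares) and without the 14 libraries set apart (triangles). Filled marks have an adjusted p under 0.05; the ATF4 KO values of Mmp10 and Reck stay filled, while the wild type value of Reck moves from -0.76 to 0.11.

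Per kilobase of exon, which allows levels to be compared between genes, the proteases and Reck changed places. In wild type cells with vehicle Reck led with a level of 8.85 CPM per kb, ahead of Mmp3 with 4.30, Mmp16 with 3.64, Mmp10 with 2.48, Mmp13 with 1.65 and Adamts12 with 0.647. With borrelidin Mmp3 led with a level of 7.79 CPM per kb, ahead of Reck with 5.26 and Mmp13 with 4.00. In ATF4 KO cells with borrelidin Reck stood at 11.0 CPM per kb, Mmp16 at 2.67, and Mmp13, Mmp10, Adamts12 and Mmp3 at 1.46, 1.39, 0.388 and 0.240. The lead of Reck under vehicle was narrow without the libraries set apart. In the other 3 wild type vehicle libraries the levels were 4.91 CPM per kb for Reck, 4.84 for Mmp3, 4.36 for Mmp10, 4.24 for Mmp16, 2.62 for Mmp13 and 0.641 for Adamts12. Reck still led without the libraries set apart in ATF4 KO cells with borrelidin, at 10.3 CPM per kb. The exon length counts every annotated isoform, so a gene read from a short isoform has a level understated on this scale.

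Counted over the 6 genes at an adjusted p under 0.05, borrelidin changed 3 in wild type cells (2 higher, 1 lower), where 59.4% of all identifiers tested were called, and 2 in ATF4 KO cells (1 higher, 1 lower), where 30.3% were. The responses differed for 3 genes, against 33.6% of identifiers. The genotypes differed for 2 genes under vehicle (both lower in ATF4 KO), against 35.3%, and for 4 under borrelidin (3 lower, 1 higher), against 49.8%. Without the libraries set apart the counts were 0 for borrelidin in wild type cells (18.7% of identifiers called in that fit), 2 in ATF4 KO cells (41.8%), 0 for the difference of responses (9.9%), 3 under vehicle (21.2%) and 5 under borrelidin (54.3%). With 6 genes the shares over all libraries are near those of all identifiers and are no result about the members.

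At the stricter limit of 1e-10 used by the study, the test called 0 of the 6 genes for borrelidin in wild type cells (background 2.11%), 0 in ATF4 KO cells (0.49%) and 0 for the difference of responses (0.501%), and DESeq2 (backgrounds 5.93%, 2.26% and 1.38%) and limma voom (2.15%, 0.501% and 0.479%) also called 0 in each. At an unadjusted p under 0.05 edgeR had 4, 2 and 3 of them in these comparisons. Between the genotypes Mmp3 alone passed 1e-10, both under vehicle (background 2.63%) and under borrelidin (5.49%). By limma voom Mmp3 did not pass it under vehicle, and by DESeq2 Reck passed it as well under borrelidin. The median log2 change of the 6 genes was 0.05 for borrelidin in wild type cells, -0.17 in ATF4 KO cells, 0.36 for the difference, -0.29 between genotypes under vehicle and -0.70 under borrelidin, beside medians of -0.06, -0.03, -0.05, 0.00 and 0.04 over all identifiers tested.

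**Figure D4:**
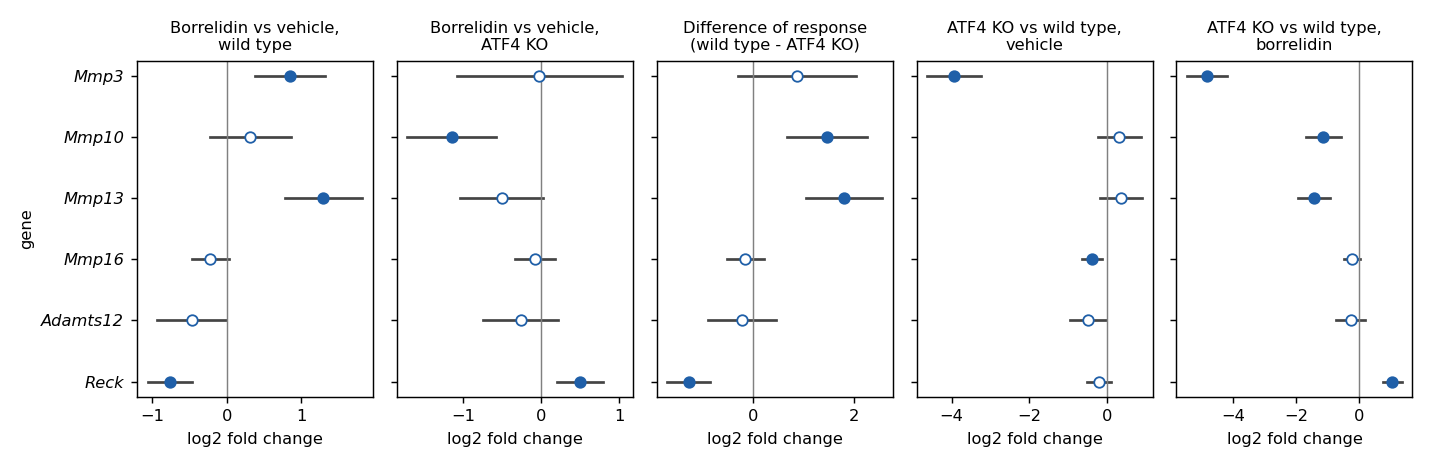
Log2 fold changes of the 6 genes in the 5 comparisons, with lines for the 95% confidence interval from edgeR's quasi-likelihood fit to all 46 libraries; scales differ between panels. Filled points have an adjusted p under 0.05; the largest change is that of Mmp3 between genotypes (-3.94 under vehicle and -4.81 under borrelidin).

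Scaling by TMM in place of library totals shifted all log2 changes by 0.14 for borrelidin in wild type cells, -0.08 in ATF4 KO cells, 0.22 for the difference, 0.06 between the genotypes under vehicle and -0.16 under borrelidin. On library totals the wild type response of Mmp16 was -0.36 and that of Adamts12 -0.61, and both then passed (adjusted p = 0.023 each). The calls for Mmp3, Mmp10, Mmp13 and Reck named above were also made on library totals.

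Among the other genes of the pathway, few lie in the segments. Of 16 protease inhibitors listed, Reck is the only one there, and of 35 ADAM and ADAMTS genes Adamts12 is. Of 24 activators and cell-surface partners the syndecan Sdc2 is there, with group means of 288 to 369 CPM. It was lower in the ATF4 KO line than in wild type cells under vehicle (log2 -0.30, adjusted p = 0.0098) and under borrelidin (-0.31, adjusted p = 0.0037), and the former did not pass without the libraries set apart (-0.20, adjusted p = 0.14). Of 44 matrix proteins Matn2 and Col15a1 are there, and Matn2, a matrilin that links matrix fibrils, fell with borrelidin in ATF4 KO cells from 56.2 ± 7.03 to 33.5 ± 4.61 CPM (log2 -0.75, SE 0.10, adjusted p = 1.2e-07). In wild type cells Matn2 had means of 36.0 and 33.8 CPM (-0.10, adjusted p = 0.41), and the responses differed by 0.65 (adjusted p = 0.00077), or by 0.69 without the libraries set apart (adjusted p = 0.0082). Col15a1 did not pass the filter on low counts.

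Of 38 signals and transcription factors known to act on metalloproteinase genes, 7 lie in the segments, and all were tested. With borrelidin 2 were higher and 3 lower in wild type cells (59.4% of all identifiers called), and 2 were higher and 1 lower in ATF4 KO cells (30.3%), at an adjusted p under 0.05. For 3 the responses differed (33.6%). Between the genotypes 3 were higher and 1 lower in ATF4 KO under vehicle (35.3%), and 5 were higher and 1 lower under borrelidin (49.8%). With 7 genes these counts are not read as a result about the list. Their median log2 change was -0.03, 0.11, -0.22, 0.08 and 0.46 in the 5 comparisons in the order above.

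The zinc-finger factor Klf4 had mean levels of 29.7 ± 6.65 and 76.1 ± 10.3 CPM in wild type cells without and with borrelidin, and of 18.4 ± 3.87 and 28.8 ± 6.14 CPM in ATF4 KO cells. It rose with borrelidin by 1.35 on the log2 scale in wild type cells (adjusted p = 2.4e-13) and by 0.64 in ATF4 KO cells (adjusted p = 8.1e-05), and the responses differed (0.71, adjusted p = 0.0014). Leaving out the libraries set apart, these values were 1.49, 0.77 and 0.72 (adjusted p = 5.1e-10, 1.1e-06 and 0.01). ATF4 KO against wild type, Klf4 differed by -0.69 under vehicle (adjusted p = 1.6e-05) and by -1.41 under borrelidin (adjusted p = 9.7e-15). Without the libraries set apart these differences were -0.59 (adjusted p = 0.0064) and -1.31 (adjusted p = 5.3e-15). The platelet-derived growth factor Pdgfd was higher in ATF4 KO cells, by 1.60 under vehicle (adjusted p = 6e-07) and by 1.82 under borrelidin (adjusted p = 6.6e-08), with group means of 1.77 to 8.56 CPM. The vehicle difference was 0.97 without the libraries set apart (adjusted p = 0.024). With borrelidin Pdgfd changed by -0.69 in wild type cells (adjusted p = 0.033), and by -1.30 without those libraries (adjusted p = 0.0064). Its change in ATF4 KO cells was -0.47 (adjusted p = 0.1). Creb3, a membrane-bound bZIP factor, was also higher in ATF4 KO cells, by 0.77 under vehicle (adjusted p = 5.7e-08) and 1.12 under borrelidin (adjusted p = 2.5e-13). Its rise with borrelidin in wild type cells, 0.28 (adjusted p = 0.017), was 0.05 without the libraries set apart and no longer passed (adjusted p = 0.77). In ATF4 KO cells the rise was 0.63 (adjusted p = 3.9e-06), and 0.66 without those libraries (adjusted p = 1.8e-11). The difference of the Creb3 responses was -0.35 over all libraries and did not pass (adjusted p = 0.057). It was -0.62 without those libraries (adjusted p = 3.1e-05) and -0.72 with the library set as a block (adjusted p = 1.5e-08).

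Birc3 and Birc2, ubiquitin ligases of the NF-kB pathway, fell with borrelidin in wild type cells by 0.73 (adjusted p = 9.1e-08) and 0.37 (adjusted p = 0.00051) on the log2 scale. In ATF4 KO cells their changes were -0.24 (adjusted p = 0.069) and 0.18 (adjusted p = 0.12), and the responses differed for both (-0.49, adjusted p = 0.0078, and -0.55, adjusted p = 0.00087). When the libraries set apart were left out, the wild type responses were -0.26 (adjusted p = 0.2) and -0.14 (adjusted p = 0.47). The differences were then -0.10 (adjusted p = 0.81) and -0.38 (adjusted p = 0.096), so none of these passed. In ATF4 KO cells the change of Birc3 was then -0.17 (adjusted p = 0.18), and that of Birc2 was 0.24 and passed (adjusted p = 0.023). The receptor gene Tgfbr1 passed in no comparison, with group means of 101 to 116 CPM, and Yap1, the effector of the Hippo pathway, had means of 531 to 696 CPM. Yap1 fell with borrelidin in ATF4 KO cells by 0.25 on the log2 scale (adjusted p = 0.0022), and it was higher in the ATF4 KO line by 0.36 under vehicle (adjusted p = 1.2e-05) and by 0.15 under borrelidin (adjusted p = 0.047). In wild type cells its response was -0.03 (adjusted p = 0.72), and -0.21 without the libraries set apart (adjusted p = 0.027). The responses did not differ in either fit (0.22, adjusted p = 0.055, and 0.11, adjusted p = 0.52).

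Over the 46 libraries, 256 protein-coding genes of the segments were compared with each member by Pearson's r of log2 CPM, which includes the differences between groups and the library sets. Mmp3 was most like the pyrophosphate transporter Ank (r = 0.944, with means of 403 and 498 CPM in the wild type groups and 143 and 123 CPM in the ATF4 KO groups), Pop1 (0.911) and Nol6 (0.88). Mmp13 was most like Tars (0.641), the gene of threonyl tRNA synthetase, which borrelidin inhibits. Tars had mean levels of 924 and 3206 CPM in wild type cells without and with borrelidin and of 619 and 774 CPM in ATF4 KO cells. Next came Ncbp1 (0.58) and Tex10 (0.578).

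Reck was most like Npr2 (0.739), Dnajb5 (0.724) and Fam219a (0.714), which all lie within the same segment of chromosome 4. Npr2, a natriuretic peptide receptor, had mean levels of 231 and 117 CPM in wild type cells without and with borrelidin and of 218 and 222 CPM in ATF4 KO cells. The 8 wild type vehicle libraries set apart had a mean Npr2 level of 268 CPM and the other 3 a mean of 132 CPM. For Mmp10 the highest values were those of Topors (0.659), Tmem123 (0.643) and Msantd3 (0.623), and for Mmp16 those of Slc44a1 (0.645), Faxc (0.581) and Rai14 (0.54). Adamts12 had no close match, with 0.477 for Slc44a1, 0.407 for Mtmr12 and 0.406 for Faxc. Among the members themselves, r of Reck was -0.572 with Mmp3, -0.647 with Mmp10 and -0.629 with Mmp13, and r of Mmp13 was 0.529 with Mmp10 and 0.472 with Mmp3.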

How the data were processed

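The data were RNA-seq counts of 46 libraries, labelled as biological replicates of 1 wild type and 1 ATF4 KO line, so p-values measure the spread between these libraries. The authors deposited raw counts per mouse gene identifier. HISAT2, HTSeq and mm10 are named in the submitters' processing notes, while the methods state feature counts for quantification, with versions, strand setting and annotation not given in the sources used here. Closing rows that name no gene were left out. They held, on average, 69.0% of reads outside any feature, 10.8% without an alignment, 5.09% of low quality, 3.97% with several alignments and 0.25% ambiguous.

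Identifiers were looked up in GENCODE M21. Mean levels of 38 genes in the 3 segments had r = 0.978 with the mean levels of the study's gene table, against 0.142 for 1755 genes elsewhere. The segments had been chosen on these levels. Of the members only Mmp3 is in that table, and the others are named by genes around them, which for Mmp16 lie 5.76 and 17.1 Mb away.

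The tests here used the quasi-likelihood fit of edgeR 4.0.16 (R 4.3.3) with TMM scaling, the filterByExpr filter and contrasts of 4 group means. Alternatives used DESeq2 1.42.0, limma 3.58.1, other scaling, filters and samples, the study's ATF4 activity and genotype model, and a replicate block. Libraries were set apart where the largest gap between their group's scores on component 2 exceeded 50% of its range. The side set apart was the one whose mean score lay farther from that of wild type with borrelidin. Same-numbered ATF4 KO libraries deviated together from their group means (r 0.18 to 0.78 in 11 pairs), while in wild type 2 of 11 pairs exceeded 0.1. In both ATF4 KO groups replicates 1 to 3 were the libraries set apart, so these r include the library sets. They do not show that libraries were paired by number. No libraries agreed within sampling noise. Intervals on 0 counts cover counting error only.

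The members and gene lists were chosen with earlier results of these data known. The text names all members, the listed genes within the segments, and for each member the 3 segment genes with the highest r.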

Additional observations from a re-analysis of the deposited data

Results flagged for a closer look

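For 3 of the 6 genes the response to borrelidin differed between wild type and ATF4 KO cells by the test of the difference itself (wild type minus ATF4 KO, log2, edgeR's quasi-likelihood test), which called 33.6% of the 8986 identifiers tested, so the count is no result about these genes. The difference was 1.7993 for Mmp13 (adjusted p = 0.00023), 1.4609 for Mmp10 (adjusted p = 0.0039) and -1.2562 for Reck (adjusted p = 9.3e-06). These rest on different arms. In Mmp10 the ATF4 KO arm passed (-1.15, adjusted p = 0.0013) and the wild type arm did not (0.32, adjusted p = 0.32). In Mmp13 the wild type arm passed (1.30, adjusted p = 4.2e-05) and the ATF4 KO arm did not (-0.50, adjusted p = 0.15), and in Reck both passed, in opposite directions. Without the 14 libraries set apart none of the differences passed, with adjusted p of 0.065 for Mmp13, 0.34 for Mmp10 and 0.16 for Reck. With the library set as a block Mmp13 (1.83, adjusted p = 0.00035) and Reck (-0.83, adjusted p = 0.00056) passed and Mmp10 (0.96, adjusted p = 0.056) did not. The block takes the same set effect in all groups. The set difference of Mmp13, however, ran in opposite directions in wild type and ATF4 KO libraries, and that of Reck was larger in wild type. Groups of 11 or 12 libraries were not examined for single outliers.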

How the results depend on the processing

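Of 274 recomputed values of the 6 genes, 252 kept their direction and their side of the threshold, 11 changed sign, 9 lost a call and 4 gained one. Members called at an adjusted p under 0.05 for borrelidin in wild type cells numbered 5 on library totals (62.3% of all identifiers called) and 0 without the libraries set apart (18.7%), and 0 for the difference of responses without those libraries (9.9%). Between the genotypes under vehicle, 0 passed 1e-10 by limma voom (2.07%), with the compared groups alone (0.897%) and without the libraries set apart (1.1%), and 1 passed 0.05 with no filter (9.48%). Under borrelidin 2 passed 1e-10 by DESeq2 (10.1%) and without the libraries set apart (7.4%). Signs turned without the libraries set apart for Mmp10 (-0.51) and Reck (0.11) with borrelidin in wild type cells, and for Mmp10 (-0.37), Mmp13 (-0.45) and Reck (0.55) between genotypes under vehicle. With the library set as a block they turned for Mmp10 in wild type cells (-0.19) and Reck under vehicle (0.0799). In ATF4 KO cells, values near 0 turned for Mmp3 on totals (0.0555), with no filter (0.0011) and with the replicate block (0.0136), and for Mmp16 on totals (0.0060). The cause was not tested. Leaving out the libraries set apart leaves 3 wild type vehicle libraries, those nearer on component 2 to wild type with borrelidin. The replicate block changed no call, with 3, 2, 3, 2 and 4 members called at 0.05. With the ATF4 KO groups alone and the replicate number as a block, Mmp10 fell by 1.10 (adjusted p = 0.0027) and Reck rose by 0.50 (adjusted p = 2e-05). That block also takes up the library sets, since the same replicate numbers were set apart in both groups. At this depth the interval of the Mmp3 response in ATF4 KO cells spans -1.08 to 1.04, so changes within it were not detectable.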
